A study of Triticum turgidum subsp. durum with 96 samples.

Results

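The comparison described here is water deficit stress in the developing head of the durum wheat genotype Tamaroi. Its members were chosen by genotype, tissue and treatment in the sample labels, which gave 12 of the 96 small RNA libraries: 6 from the control group and 6 from the water deficit stress group. Tamaroi is labelled as tolerant to water deficit stress. Each library came from the head of 1 plant, with 3 plants per treatment in each of 2 growing seasons. Control plants were kept at 12% soil water content, and stressed plants at 6% for 15 d from booting. Neither group carried a transgene or received any other agent that the labels name. The libraries are called here by treatment, season and letter, so that control 1-b is the control plant with the letter b of season 1. A head is a mixed organ, so a miRNA that falls may reflect fewer cells of a type or less RNA per cell, which cannot be told apart in these libraries.

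The measured items were 110 conserved miRNAs, given as reads scaled to a library of 1000000 small RNA reads (RPM), and the hairpins of candidate miRNAs without a match in miRBase (47 on A, 59 on B and 53 on D genome contigs), given as log2 CPM, counts relative to library size on a log2 scale. Library depth ran from 2.49e+06 to 1.77e+07 reads in the control group and from 3.51e+06 to 5.08e+06 reads in the stressed group, so that 3 reads are worth between 0.170 and 1.202 RPM. The deepest library was control 2-b. Depth did not differ between treatments beyond its spread (two-sided exact permutation test, p = 0.872). Control 1-b stood apart from the others. Its 110 miRNAs summed to 10856 RPM, against 16331 to 23778 in the other controls and 13151 to 19731 in stressed heads, and it was the lowest control for 78 of the 110 miRNAs. Counts over all miRNAs and the values of the copper miRNAs are also given without it. No marker genes are measured by these tables, so the label of the organ was not checked independently.

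Plant miRNAs are short RNAs of mostly 21 nt, cut from hairpin precursors, that guide an Argonaute protein to transcripts with a nearly complementary site. The copper miRNAs are made when copper is scarce. miR397 targets laccases, miR398 targets copper/zinc superoxide dismutases and miR408 targets plantacyanins and laccases, all of which are copper proteins. miR528 of grasses also targets transcripts of copper proteins such as ascorbate oxidase. miR395 is induced by sulphate shortage and targets ATP sulphurylases and a sulphate transporter, miR399 is induced by phosphate shortage and targets the ubiquitin-conjugating enzyme PHO2, and miR827 acts on transcripts of SPX-domain proteins. Other listed families act on auxin response factors and receptors, on flowering, on the growth and patterning of organs, on AGO1 of the miRNA pathway itself and on MADS-box and calcium-related transcripts, and a further set is young or repeat-like.

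The sequences of the copper miRNAs are shown first, because 6 of the 13 miRNAs that crossed the fold change criteria belong to this list. Bases 2 to 8 from the 5′ end, the seed, are in capitals, and T stands for U.
Zma-miR528a: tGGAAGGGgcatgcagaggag
Bdi-miR528: cCTGTGCCtgcctcttccatt
Gma-miR408d: tGCACTGCctcttccctggc
Tae-miR408: cTGCACTGcctcttccctggc
Zma-miR398b: tGTGTTCTcaggtcgcccccg
Bdi-miR397b: aTTGAGTGcagcgttgatgaa
Sbi-miR397: tCACCGGCgctgcactcaatt
The 7 have 7 different seeds. Gma-miR408d is Tae-miR408 without its first base, which shifts the seed by 1 base, so reads of this miRNA may be divided between both entries. Sbi-miR397 has a run of 13 bases complementary to Bdi-miR397b, as the opposite arm of a precursor would have. This is the largest complementary run within a copper family. Bdi-miR528 matches Zma-miR528a at only 2 of 21 positions, with a complementary run of 6 bases. Whether Sbi-miR397 and Bdi-miR528 act on the targets named for their families was not tested.

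The other miRNAs that crossed the criteria are shown to tell closely related entries apart.
Tae-miR395b: tGAAGTGTttgggggaactc
Zma-miR399e: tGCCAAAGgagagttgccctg
Gma-miR6300: gTCGTTGTagtatagtgg
Sbi-miR166k: tCGGACCAggcttcattcct
Ath-miR396b: tTCCACAGctttcttgaactt
Bdi-miR168: cCCGCCTTgcaccaagtgaat
Bdi-miR5200: tGTAGATActctctaaggctt
The seed of Sbi-miR166k is found in 8 listed miRNAs, itself included, that of Zma-miR399e in 2 and that of Ath-miR396b in 2. Zma-miR399c differs from Zma-miR399e at 1 of 21 positions, so the split of reads between them is uncertain. Gma-miR6300 is 18 nt long and has the sequence at the start of a plant aspartate tRNA, so its reads may be tRNA fragments.

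Few conserved miRNAs of Tamaroi heads crossed the fold change criteria of the study, which ask for a ratio of mean RPM above 1.5 and at least 10 RPM in 1 group. There were 12 miRNAs lower in stressed heads (10.9% of the 110) and 1 higher (0.909%). The 12 were 6 of the 7 copper miRNAs, Tae-miR395b, Zma-miR399e, Sbi-miR166k, Ath-miR396b, Bdi-miR168 and Bdi-miR5200, and the higher one was Gma-miR6300. These criteria take no account of the spread between plants. With limma on log2(RPM + 1), over all 48 head libraries and with Benjamini-Hochberg adjustment over the 110 miRNAs, 0 miRNAs passed an adjusted p of 0.05 (0%), and the smallest adjusted p was 0.418. At an unadjusted p of 0.05 limma had 3 miRNAs (2.73%), namely Gma-miR6300, Tae-miR395b and Zma-miR166m, and voom on whole reads had 2. In none of the 110 miRNAs did the control and stressed libraries form groups without overlap (0%).

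The median log2 change over the 110 miRNAs was -0.08, with 67 below 0 and 43 above. Without control 1-b it was -0.32, with 95 below 0, and limma had 6 miRNAs at an unadjusted p of 0.05 and 0 past the adjusted one. The summed RPM of the 110 miRNAs averaged 19327 ± 5031 (SD, n = 6) in control heads and 16289 ± 2709 in stressed heads, a log2 difference of -0.21 (two-sided exact permutation test, p = 0.320). Without control 1-b the difference was -0.37 with an exact p of 0.0368, in that alternative alone of those tried. Single miRNAs were estimated with a median 95% interval of ± 0.73 on the log2 scale, without adjustment for the number of miRNAs. A change smaller than its own interval could not be told from 0, and the adjusted test asked for larger changes still. The labels give each of the 12 heads its own plant, so n counts plants.

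**Figure D1:**
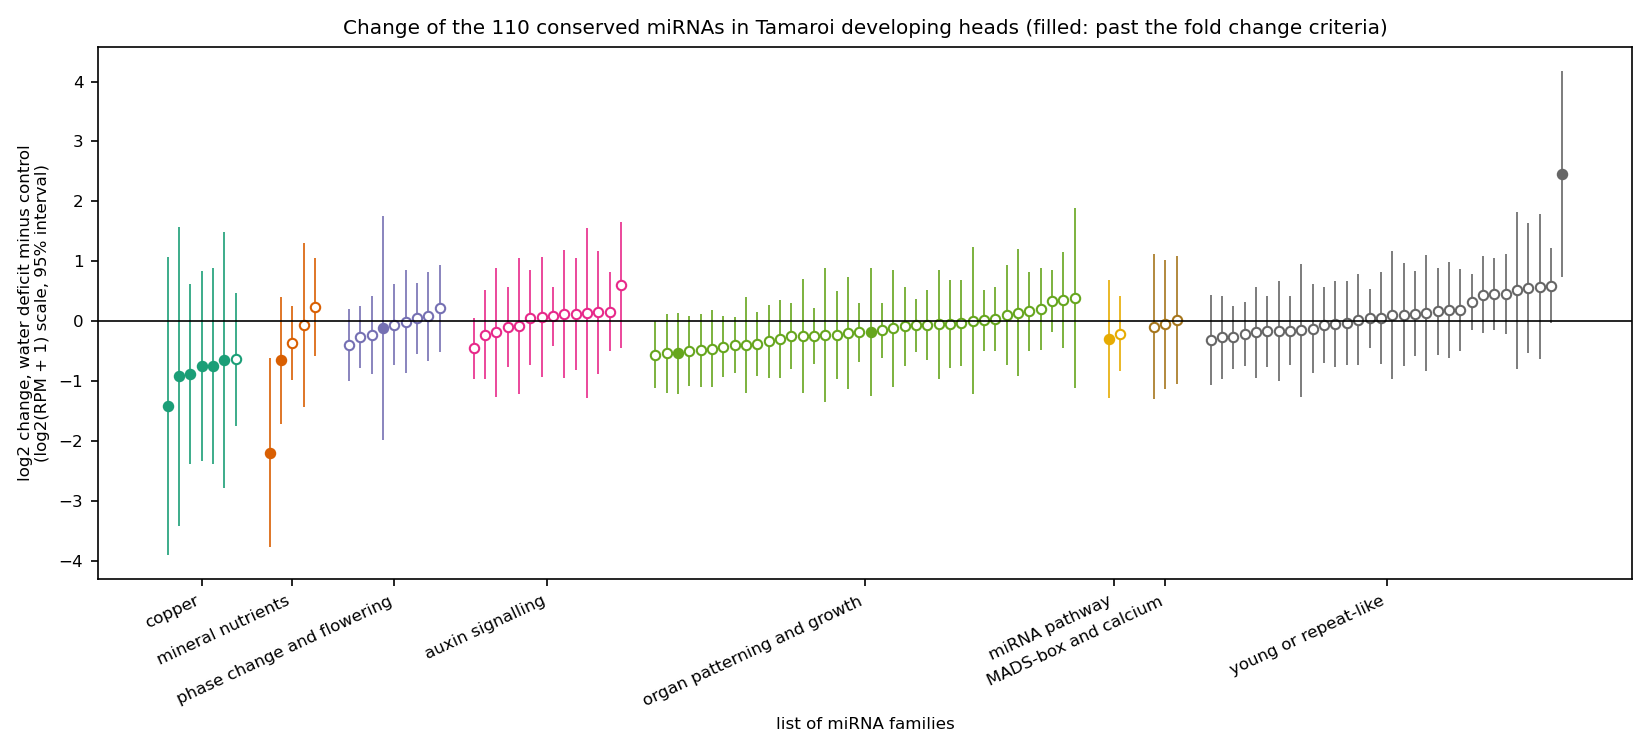
Change of each of the 110 conserved miRNAs in Tamaroi heads, water deficit minus control, on the log2(RPM + 1) scale, with the 95% interval from limma, n = 6 libraries per group. Columns are grouped by list and sorted within it, and filled points passed the fold change criteria. All 7 copper miRNAs lie below 0, with wide intervals that include 0.

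The copper miRNAs had lower means in stressed heads, with a wide spread among the control plants. All 7 had a log2 change below 0, from -1.42 to -0.64 with a median of -0.75, beside -0.08 over all 110, and 0 of the 7 passed limma. Summed over the list they reached 98.3, 874 and 3696 RPM (lowest, median and highest) in control heads and 76.3, 392.9 and 950.5 RPM in stressed heads. Control 1-a was the highest control for 7 of 7 copper miRNAs and control 1-b the lowest for 7 of 7. The 7 entries come from the families miR397, miR398, miR408 and miR528 and shared these extreme plants, so they are not 7 independent readings.

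Zma-miR528a, whose family targets ascorbate oxidase and related copper protein transcripts in grasses, was read at 1049, 5.89 and 53.7 RPM in controls 1-a, 1-b and 1-c and at 99.7, 606 and 520 RPM in controls 2-a, 2-b and 2-c. In stressed heads it was at 105, 66.6 and 8.48 RPM in season 1 and at 150.5, 90.2 and 36.0 RPM in season 2. Controls 1-a, 2-b and 2-c were above every stressed head, controls 1-c and 2-a lay within the stressed range, and control 1-b was below all of them. Mean RPM was 5.11-fold lower in stressed heads, 6.14-fold in season 1 and 4.43-fold in season 2. The log2 change was -1.42 ± 1.23 (SE, n = 6 per group, limma adjusted p = 0.983). By qPCR on the RNA samples of the libraries, the study also reported Zma-miR528a as lower under stress in Tamaroi heads.

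Gma-miR408d, the 20 nt form of the miRNA that targets plantacyanin and laccase transcripts, had the same division of control plants. Controls 1-a, 2-b and 2-c held 670.0, 218 and 340.4 RPM, whereas controls 1-b, 1-c and 2-a held 2.05, 14.4 and 13.9 RPM. Stressed heads were at 3.45, 44.8 and 71.3 RPM (lowest, median, highest), all below the first 3 controls and overlapping with the other 3. Its mean was 5.16-fold lower under stress, and its log2 change -0.92 ± 1.24 (SE). The 21 nt form Tae-miR408 was at 0 reads in control 1-b, which allows up to 0.768 RPM, at 68.5 RPM in control 1-a and at 0.265 to 5.87 RPM in stressed heads, with a mean 5.20-fold lower. Without control 1-a that ratio was 1.72, and Tae-miR408 no longer reached 10 RPM in either group.

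Zma-miR398b, whose family targets copper/zinc superoxide dismutase transcripts, ranged from 1.02 RPM in control 1-b over a median of 58.0 to 429 RPM in control 1-a. Stressed heads ranged from 4.51 to 129 RPM with a median of 28.3. The mean was 2.73-fold lower, but 8.73-fold in season 1 and 1.12-fold in season 2, and 1.25-fold without control 1-a. Its log2 change was -0.65 ± 1.06 (SE).

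Bdi-miR397b, of the family that targets laccases, was the most abundant copper miRNA. It was at 89.1, 329.9 and 1438 RPM in control heads and at 58.8, 237 and 589 RPM in stressed heads (lowest, median, highest), so the groups overlapped. The mean was 2.03-fold lower under stress, and 1.31-fold lower without control 1-a. Bdi-miR528 held 0 to 21.3 RPM in control heads and 0 to 9.22 RPM in stressed heads, a 2.24-fold lower mean, and Sbi-miR397 held 0.256 to 19.1 and 0.795 to 4.401 RPM, a 2.77-fold lower mean that stayed under 10 RPM. Without control 1-a the control-to-stressed ratios were 3.37 for Zma-miR528a, 2.90 for Gma-miR408d and 1.60 for Sbi-miR397. Without control 1-b they were 6.11 for Zma-miR528a, 6.19 for Gma-miR408d and 3.27 for Zma-miR398b, and the log2 changes of these 3 became -2.31, -1.77 and -1.56. In that fit all 7 copper changes lay between -2.31 and -1.01, and the smallest unadjusted limma p of the list was 0.0419, for Bdi-miR528 (adjusted p = 0.655).

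**Figure D2:**
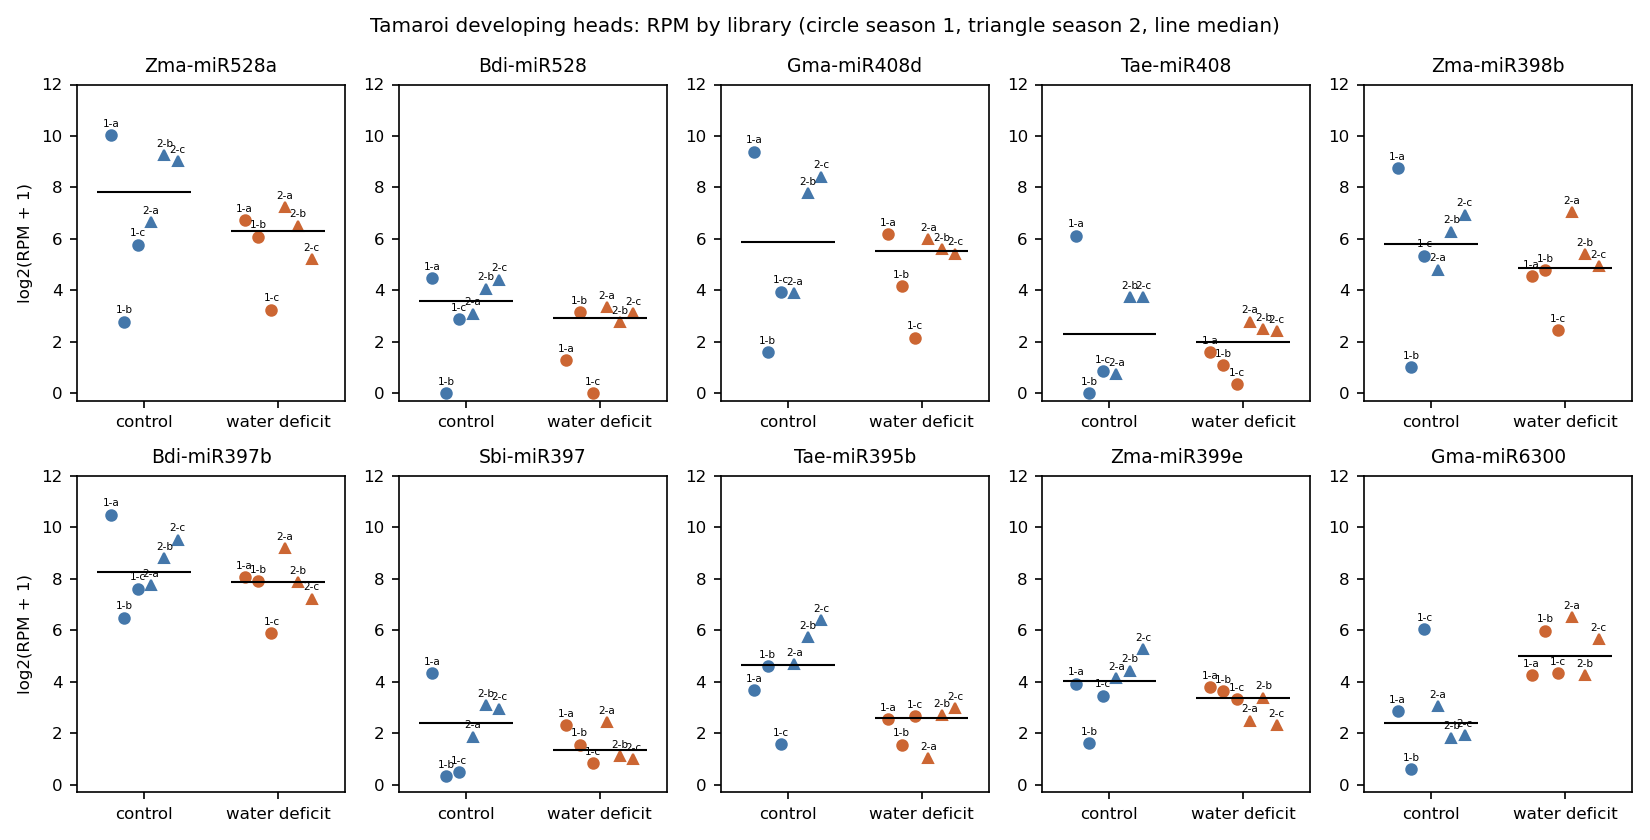
RPM of 10 miRNAs in the 6 control and 6 stressed Tamaroi heads, on the log2(RPM + 1) scale; each point is 1 library, labelled by season and letter, and the line is the group median. Controls 1-a, 2-b and 2-c are the 3 highest controls of all 7 copper miRNAs, and control 1-c is apart from the other controls in Tae-miR395b (low) and Gma-miR6300 (high).

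The flag leaves of the same plants had the same extremes. Among the 6 control plants, the plant of control 1-a was highest in the leaf for 6 of 7 copper miRNAs, and the plant of control 1-b lowest for 5 of 7. For Zma-miR528a the leaf held 1848 RPM in plant 1-a and 207 RPM in plant 1-b, and the 6 control plants had the same rank order in both organs. Bdi-miR397b was at 2624 RPM in the leaf of plant 1-a and 239.7 RPM in that of plant 1-b. A low level in control 1-b was thus measured in 2 libraries of 1 plant. What set the plants apart was not tested.

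**Figure D3:**
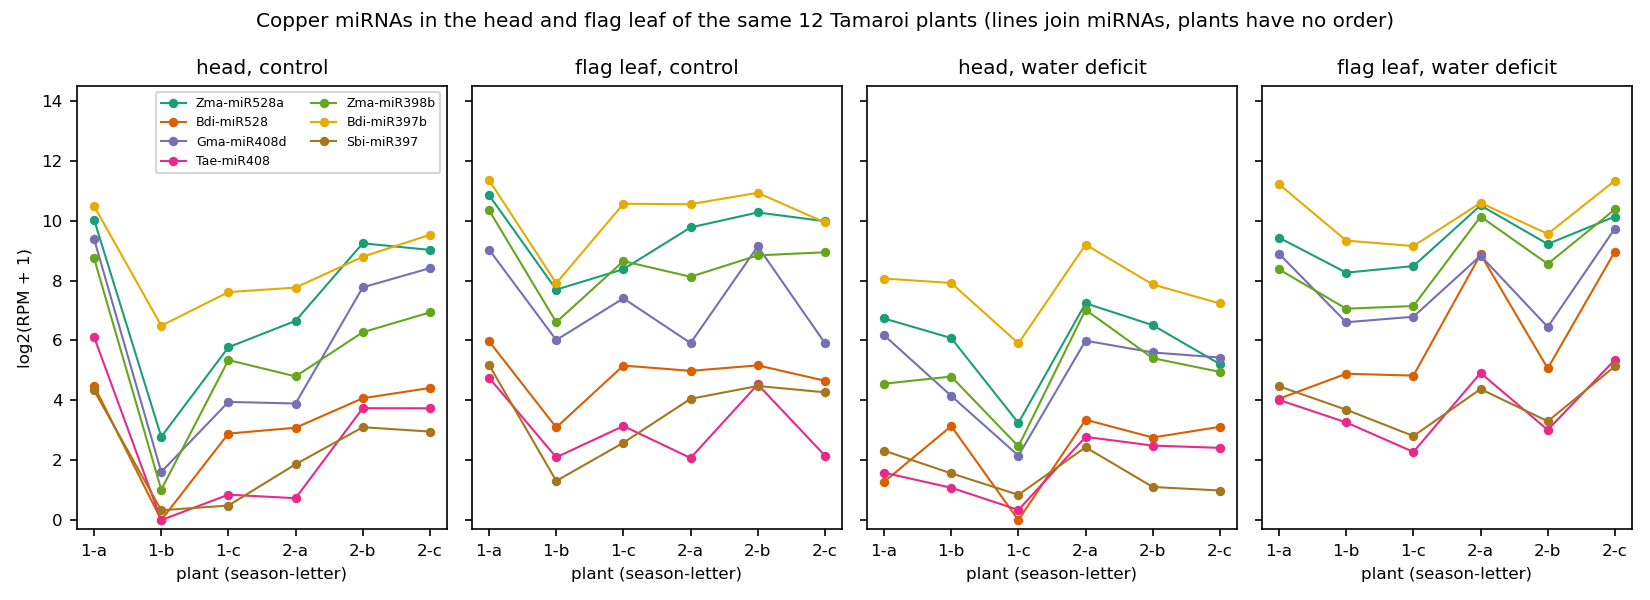
The 7 copper miRNAs in the head and flag leaf of the same 12 Tamaroi plants, log2(RPM + 1) against plant, controls in the left 2 panels and stressed plants in the right 2. Lines join the values of 1 miRNA and carry no order of plants. In both organs of the controls plant 1-a is high and plant 1-b low.

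Of the mineral nutrient list, Tae-miR395b had the second smallest p of all 110 miRNAs. This miRNA of the sulphate shortage response was at 11.7, 23.3, 24.9, 51.9 and 82.8 RPM in 5 control heads and at 2.00 RPM in control 1-c. All 6 stressed heads lay between 1.05 and 6.88 RPM, below those 5 controls and around the remaining one. The mean was 7.68-fold lower under stress, 3.05-fold in season 1 and 11.8-fold in season 2. The log2 change was -2.20 with a 95% interval from -3.78 to -0.61 and an adjusted p of 0.418 (limma). It passed in season 2 alone, with a log2 change of -3.36 and an adjusted p of 0.0213. Over the leave-one-out fits the adjusted p ran from 0.0531 without control 1-c to 0.997. The fall was not particular to Tamaroi heads. In EGA Bellaroi, Yawa and Tjilkuri heads the log2 changes of Tae-miR395b were -1.71, -1.74 and -0.28 (limma adjusted p = 0.465, 0.0548 and 0.991).

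Zma-miR399e, of the phosphate shortage family, was at 2.05, 15.4 and 37.9 RPM in control heads and 3.93, 9.23 and 12.8 RPM in stressed heads (lowest, median, highest). Its mean was 1.98-fold lower, with opposite directions in the seasons: the stressed mean was 1.27 times the control mean in season 1 and 0.240 times in season 2. Zma-miR399c, which differs by 1 base, followed the same order of seasons (2.17 and 0.381 times) and had a log2 change of -0.07. Both miR827 entries were under 5 RPM in every library, with log2 changes of 0.23 for Bdi-miR827-3p and -0.36 for Bdi-miR827-5p, neither past the test.

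Gma-miR6300 had the smallest p and was the 1 miRNA that was higher by the criteria. Its stressed heads held 18.0 to 90.5 RPM with a median of 34.4. Controls held 0.512 to 7.27 RPM in 5 plants and 64.5 RPM in control 1-c. All 6 stressed heads were above those 5 controls, and 1 of the 6 controls lay inside the stressed range. The mean was 3.07-fold higher, 1.39-fold in season 1 and 12.6-fold in season 2, and the log2 change was 2.46 with a 95% interval from 0.74 to 4.17 (limma adjusted p = 0.418). Control 1-c was thus the exception in both Tae-miR395b and Gma-miR6300. When it was left out, the log2 changes became -2.77 and 3.12, each with an adjusted p of 0.0531 over the 110 miRNAs. The RNA class of these reads was not tested.

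The other 4 miRNAs that crossed the criteria did so narrowly. Ath-miR396b, of the family that restrains growth-regulating factors, had means of 1434 ± 949 and 946 ± 407 RPM (SD), a 1.52-fold lower mean, and kept the criteria in 5 of 12 fits with 1 library left out. In season 1 its stressed mean was 1.47 times the control mean, and in season 2 0.415 times. Bdi-miR168, the opposite arm of the miRNA that targets AGO1, was at 0.768 to 19.7 RPM in control heads and 4.13 to 11.7 RPM in stressed heads, and kept the criteria in 6 of 12. Its log2 change was -0.30, and -0.80 without control 1-b. Bdi-miR5200, which in Brachypodium targets transcripts of the florigen FT, was at 0.802 to 44.7 and 2.75 to 26.1 RPM and kept them in 7 of 12. Sbi-miR166k, of the family that acts on HD-ZIP III transcription factors of organ polarity, was at 10.5 to 38.4 and 11.1 to 18.1 RPM and kept them in 9 of 12. Tae-miR395b, Gma-miR408d, Bdi-miR528, Zma-miR528a and Gma-miR6300 kept the criteria in 12 of 12. Of these, Bdi-miR528 fell out with geometric means, a minimum of 20 RPM, median-ratio scaling and in season 1 alone. Gma-miR6300 fell out in season 1 alone.

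The organ patterning and growth list held most of the miRNA reads of the head. Its 38 members summed to 8847, 13795 and 17086 RPM in control heads and to 9338, 11468 and 14530.2 RPM in stressed heads (lowest, median, highest). Of these 28 were below 0 and 10 above, with a median of -0.18 and a range from -0.56 to 0.39, and 0 passed. Zma-miR166m, read at 3.23 to 7.42 RPM in control heads and 1.97 to 5.54 RPM in stressed heads, had a log2 change of -0.56 (limma adjusted p = 0.983).

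The abundant members of this list did not pass the test. Osa-miR166k, which differs from Sbi-miR166k at 2 of the 20 positions compared, was at 1248, 2122 and 2812 RPM in control heads and 979, 1544 and 1759 RPM in stressed heads, with a log2 change of -0.50 and a 95% interval from -1.08 to 0.08. Tae-miR159b, of the family that targets GAMYB transcription factors of anther development, was at 1857, 2372 and 3280.2 RPM and 1356, 1826 and 2619 RPM, with a log2 change of -0.40 (95% interval from -0.86 to 0.07). Both intervals include 0, and in both miRNAs the groups overlapped. Bdi-miR159-3p, Zma-miR159c and Zma-miR159a were also among the 10 smallest p, with log2 changes from -0.54 to -0.42. Tae-miR159b, Bdi-miR159-3p and Zma-miR159c share 1 seed and a run of at least 18 bases, so they are not independent readings.

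The auxin signalling list had 14 members, 5 below 0 and 9 above, with a median of 0.07, a range from -0.45 to 0.60 and 0 past the test. Its smallest p belonged to Osa-miR167e, a low entry listed here by its family name, at 0 to 2.42 RPM in control heads and 0 to 1.97 RPM in stressed heads. No other listed miRNA has its seed, and whether it acts on auxin response factors was not tested. Bdi-miR167e was at 5.37 RPM in control 1-b and 48.5 to 53.6 RPM in the other 5 controls, beside 38.2 to 77.7 RPM in stressed heads. The phase change and flowering list had 9 members, 6 below 0 and 3 above, with a median of -0.06 and 0 past the test. Its first entry by p was Ath-miR156b, which acts on SPL transcription factors, at 219, 467 and 807 RPM in control heads and 197, 361 and 449 RPM in stressed heads. The miRNA pathway list holds Bdi-miR168 and Sbi-miR168, with log2 changes of -0.30 and -0.21. Sbi-miR168, the arm that targets AGO1, was at 33.5 to 107.2 RPM in control heads and 29.4 to 82.4 RPM in stressed heads.

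The 3 entries for MADS-box and calcium-related targets ranged from -0.09 to 0.01, and the 32 young or repeat-like entries, Gma-miR6300 among them, had a median of 0.08, with 13 below 0 and 19 above. In that list Bdi-miR5049 followed Gma-miR6300 by p, at 0.401 to 4.70 RPM in control heads and 1.97 to 3.90 RPM in stressed heads.

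Summing the RPM of each family removes any division of reads among near-identical entries. Of 50 families 0 passed an adjusted p of 0.05 (limma, 0%) and 2 had an unadjusted p under 0.05 (4%), miR6300 and miR395, which have 1 entry each. The miR159 family came next, with 9 entries that summed to 2920 RPM on average in control heads and 2217 RPM in stressed heads, a log2 change of -0.41 (adjusted p = 0.988). The miR528 family changed by -1.38 and the miR397 family by -0.75. In season 2 alone, and also without control 1-c, both miR395 and miR6300 passed, with an adjusted p of 0.0136 and 0.0361 in season 2 and of 0.0266 for each without control 1-c, while the smallest adjusted p over the alternatives ran from 0.0136 to 0.763.

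The seasons were also fitted separately, and the difference between them was not tested. In season 1 the median log2 change over the 110 miRNAs was 0.16, with 37 below 0, and in season 2 it was -0.36, with 83 below 0. Control 1-b, the library with low miRNA levels, belongs to season 1. By the fold change criteria 16 miRNAs passed within season 1 (13 lower and 3 higher) and 30 within season 2 (26 lower and 4 higher). With 3 against 3 plants, the summed RPM differed by -0.05 on the log2 scale in season 1 (exact p = 1) and by -0.38 in season 2 (exact p = 0.10, the smallest such a design can give).

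The response of Tamaroi heads was compared with that of EGA Bellaroi heads, the sensitive genotype of its breeding pair. Of the 110 differences 0 passed an adjusted p of 0.05 (limma, 0%), and 10 had an unadjusted p under 0.05 (9.09%). The 3 largest differences were those of copper miRNAs, followed by Gma-miR6300 at 2.77. Zma-miR528a was at 0.970, 2.65 and 122 RPM in EGA Bellaroi control heads and 6.68, 193 and 249 RPM in its stressed heads (lowest, median, highest), while in Tamaroi it moved the other way. The difference of the log2 changes was -4.41 ± 1.74 (SE), with a limma adjusted p of 0.430. For Gma-miR408d it was -3.77, for Zma-miR398b -3.47 and for Bdi-miR397b -2.33, each with an adjusted p between 0.430 and 0.470.

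Osa-miR167e had the smallest p of this comparison. Its difference was -1.16 ± 0.36 (SE, limma adjusted p = 0.274), from values of 0.176 to 0.842 RPM in EGA Bellaroi control heads and 0.557 to 2.21 RPM in its stressed heads. Without control 1-b the difference was -1.40 and passed (limma adjusted p = 0.0148), while the smallest adjusted p over the other alternatives ran from 0.0643 to 0.845. Over the 110 miRNAs the median difference was -0.41, and under median-ratio scaling, which removes shifts common to the listed miRNAs, it was -0.10. In season 1 alone it turned to 0.23, with 44 of 110 below 0, and in season 2 it was -0.90, with 95 below 0.

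Against Yawa heads, the other tolerant genotype, 0 differences passed (limma, 0%) and 40 had an unadjusted p under 0.05 (36.4%). The smallest adjusted p was 0.0901. The median difference was 0.91, since the change in Yawa heads had a median of -0.99 over the 110 miRNAs. Under median-ratio scaling the median was 0.09, and without control 1-b 18 miRNAs had an unadjusted p under 0.05. In Yawa heads all 7 copper miRNAs had log2 changes below 0, with a median of -1.06, as had 104 of all 110 miRNAs, so the list did not stand apart there by direction. The difference between them was 0.82 for Zma-miR528a, with a 95% interval from -2.69 to 4.33, and 0.13 for Gma-miR408d, with one from -3.40 to 3.67. Such intervals leave room for large differences. Gma-miR6300 differed by 3.24 (adjusted p = 0.0901).

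Against the flag leaf of the same plants 0 differences passed (limma, 0%) and 2 had an unadjusted p under 0.05 (1.82%). These were Tae-miR395b and Gma-miR6300. In the leaf Tae-miR395b was at 0.643, 5.23 and 26.0 RPM in control plants and 1.28, 11.8 and 57.5 RPM in stressed plants, a difference from the head of -3.38 ± 1.30 (SE). Gma-miR6300 was at 0.999 to 4.82 RPM in control leaves and 0.769 to 12.8 RPM in stressed leaves, so that it stayed under 13 RPM in all 12 leaves, and the difference was 2.22 ± 1.06 (SE). With the plant as a replicate block, 6 miRNAs had an unadjusted p under 0.05, the smallest adjusted p was 0.255 and 0 passed.

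**Figure D4:**
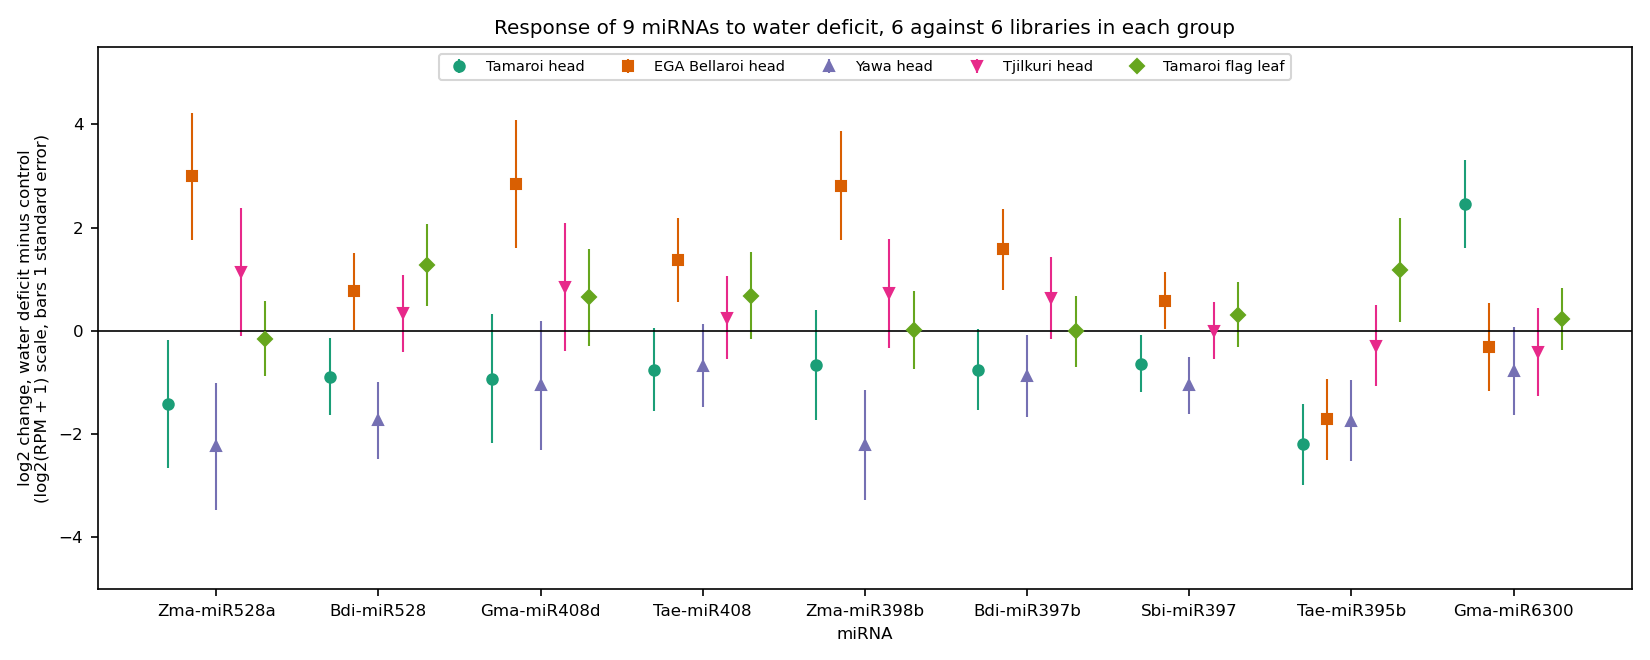
Log2 change under water deficit of the 7 copper miRNAs, Tae-miR395b and Gma-miR6300 in heads of the 4 genotypes and in Tamaroi flag leaves, with 1 standard error, n = 6 libraries per group. For all 7 copper miRNAs the Tamaroi and Yawa head points lie below 0, beside 67 and 104 of all 110 miRNAs. The EGA Bellaroi and Tjilkuri head points lie above 0, beside 89 and 72 of all 110, with Sbi-miR397 in Tjilkuri at only 0.004. By mean RPM the direction in Tjilkuri heads was not shared. Zma-miR528a (73.0 RPM stressed beside 88.8 control), Gma-miR408d, Zma-miR398b, Bdi-miR528 and Sbi-miR397 had lower means under stress there. Bdi-miR397b and Tae-miR408 had higher ones. Of the differences from EGA Bellaroi heads, Yawa heads and Tamaroi flag leaves 0 passed the adjusted test. The difference from Tjilkuri heads was not tested.

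The hairpins of candidate miRNAs were placed by the study on contigs of the bread wheat survey sequence, named by chromosome arm. Mature sequences of 4 miRNAs that the study followed up are shown, with the seed in capitals.
Ttu-miR007: tGTAATAAactagtcttcaga
Ttu-miR008: tAAGGAAAagaaggagaaacg
Ttu-miR038: tTTGTGATttgtgaatgccacgtg
Ttu-miR109: gAGAGCTActcaaatgttcaa
Of the 110 conserved miRNAs 0 share a seed with any of these 4. They come from 5 hairpins. Ttu pre-miR007, Ttu pre-miR008, Ttu pre-miR038 and Ttu pre-miR109 lie on arms 1AS, 1AS, 2AL and 5AS of the A genome, and Ttu pre-miR119 lies on arm 5DL.

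No hairpin changed past the test in Tamaroi heads. Limma on the deposited log2 CPM gave 0 hairpins at an adjusted p of 0.05 (0%) and 4 at an unadjusted p of 0.05 (2.52%), with a smallest adjusted p of 0.589. The unadjusted count depended on single libraries and on season: it was 16 without control 1-c, 1 without stressed 2-c, 10 in season 1 and 24 in season 2. In 0 hairpins were the groups apart (0%). The median log2 change was 0.12, with 94 above 0 and 65 below, and -0.02 when each library was centred on its median. Between 13 and 54 hairpins were at the lowest value of their library, which was taken as no reads.

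Ttu pre-miR084 and Ttu pre-miR077 had the smallest p, and both were lower in stressed heads. Ttu pre-miR084, on arm 3DL (contig 6918468, positions 1 to 121), was at 1.19, 2.21 and 2.67 log2 CPM in control heads. Stressed heads were at 0.77 to 2.41 log2 CPM in 4 plants, at -0.77 in stressed 2-a and at the library minimum of -3.25 in stressed 2-c. The difference was -1.61 ± 0.55 (SE, adjusted p = 0.589), of which -2.91 was in season 2 and -0.32 in season 1. Ttu pre-miR077, on chromosome 3B (contig 10651148, positions 2304 to 2430), was at 2.07 to 3.21 log2 CPM in control heads and 0.81 to 2.59 in stressed heads, a difference of -0.98 ± 0.35 (SE).

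The other 8 of the 10 smallest p were higher in stressed heads. Ttu pre-miR054 and Ttu pre-miR056, both on arm 2DL, agreed to within 0.36 log2 CPM in all 12 heads, and changed by 1.58 and 1.46. Ttu pre-miR058, also on 2DL, was at -0.55 to 2.59 log2 CPM in control heads and 1.13 to 2.74 in stressed heads. Ttu pre-miR023, Ttu pre-miR026 and Ttu pre-miR130 had identical values in all libraries and count as 1 measurement. These 3 and Ttu pre-miR024 were at the library minimum in 5 or 6 of 6 controls and in 4 of 6 stressed heads. Ttu pre-miR070, on arm 3AS, was at 2.52 to 6.62 log2 CPM in control heads and 4.80 to 6.80 in stressed heads, with a difference of 2.85 in season 1 and -0.87 in season 2. With identical hairpins counted once, the 10 smallest p are 8 entries, of which 6 lie on contigs of the D genome, which durum wheat lacks, beside 50 of 153 in all. The 6 include Ttu pre-miR054 and Ttu pre-miR056, which nearly coincide, and entries mostly at the library minimum. Whether D genome contigs were in excess was not tested. The origin of these hairpins in the durum genome was not tested either.

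None of the 5 hairpins with a followed-up mature miRNA passed the test. The study selected them by an interaction of tolerance and treatment across tolerant and sensitive genotypes, a term that the Tamaroi head contrast does not test. By qPCR it also measured Ttu-miR007, Ttu-miR038 and Ttu-miR109, and conserved miRNAs that included Zma-miR528a, Gma-miR408d, Bdi-miR528 and Bdi-miR5200. Ttu pre-miR007 was at 7.02, 8.69 and 8.84 log2 CPM in control heads and 8.18, 8.68 and 9.40 in stressed heads, a difference of 0.35 with a 95% interval from -0.43 to 1.14. Ttu pre-miR038 was at 4.67 to 6.16 and 4.44 to 6.07 log2 CPM, with a difference of -0.23 (95% interval from -0.90 to 0.45). Ttu pre-miR008 and Ttu pre-miR109 were low, at -3.25 to 0.27 and -3.25 to 0.56 log2 CPM over both groups. The library minimum was reached in 2 and 2 controls and in 3 and 3 stressed heads, and the differences were -0.30 and -0.32. Ttu pre-miR119 had the values of Ttu pre-miR109 in all 6 controls and was at -3.25 to -0.45 log2 CPM in stressed heads, a difference of -0.13 (95% interval from -1.34 to 1.08).

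Ttu pre-miR120, on arm 5DS, was singled out after its values were seen, because its heads fell into separate levels. It was at 10.21 to 10.63 log2 CPM in control 1-c, stressed 2-a and stressed 2-c, and at -3.44 to -1.19 in the other 9 heads. The flag leaves of the same 3 plants were at 11.6 to 12.7 log2 CPM and those of the other 9 at -3.50 to 0.13, so the division followed the plant and not the treatment. Among the other genotypes 1 EGA Bellaroi control plant was high, at 9.94 in the head and 11.8 in the leaf, and 0 Yawa or Tjilkuri libraries reached 5 log2 CPM. Since 2 of the 3 high Tamaroi plants were stressed plants of season 2, this hairpin passed limma in season 2 alone, with a difference of 9.24 and an adjusted p of 0.00558. In season 1 alone Ttu pre-miR070, Ttu pre-miR078 and Ttu pre-miR075 passed, with differences of 2.85, 2.85 and 2.52, and the first 2 agreed to within 0.002 log2 CPM in the 12 heads.

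**Figure D5:**
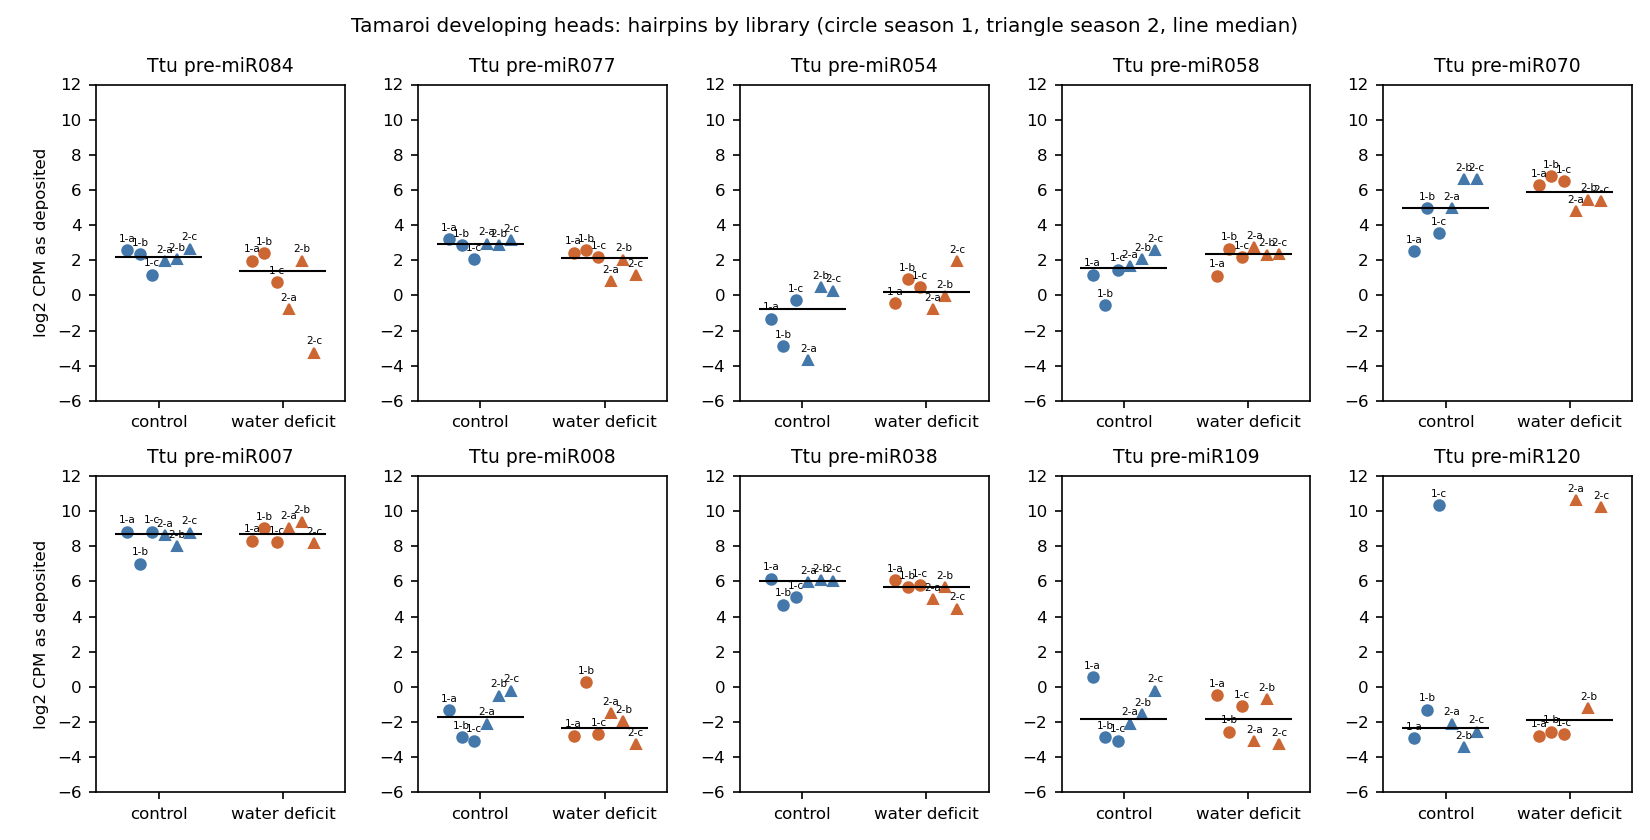
Log2 CPM, as deposited, of 10 hairpins in the 6 control and 6 stressed Tamaroi heads; points are libraries labelled by season and letter, lines are medians. Ttu pre-miR084 is low in stressed 2-a and 2-c, and Ttu pre-miR120 is above 10 log2 CPM in control 1-c, stressed 2-a and stressed 2-c and under 0 in the other 9.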

How the data were processed

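Total RNA of single plants was made into small RNA libraries from fragments of 15 to 40 nt and sequenced on an Illumina HiSeq. The authors matched the reads to miRBase in CLC Genomics Workbench with up to 2 mismatches, scaled each count to the total of small RNA reads in its library, and deposited RPM values of those miRNAs that exceeded 2 RPM in 50% or more of all libraries. RPM therefore moves when other small RNA classes change. The hairpins, predicted on the bread wheat survey sequence, were deposited as log2 CPM values; how reads were assigned to hairpins is not given in the sources used. All 1307 RPM values above 0 in the 12 libraries were whole multiples of 1 read (tolerance 0.01 read), which gave the depths. Limits of 3 reads cover counting error only.

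The fold change criteria took the ratio of mean RPM above 1.5, 0 set to 0.01, and 10 RPM or more in 1 group. Limma 3.58.1 (R 4.3.3) was run with trended variances on log2(RPM + 1) or log2 CPM over all 48 heads, or all 96 libraries for the flag leaf, with Benjamini-Hochberg adjustment and a threshold of 0.05. Fold changes on the log2(RPM + 1) scale understate the change of low miRNAs. A ratio of mean RPM weighs the highest plants more than a difference of mean log2 values does. The measures can therefore differ widely for the same miRNA. Totals were compared by exact permutation (numpy 2.4.6). Scripts were tested on simulated data. Control and stressed groups share replicate numbers, but same-numbered heads came from different plants and were not treated as pairs. Of 6 correlations of their deviations 3 were over 0.1. Season was not a term of the main model. With season as a covariate 0 miRNAs, families or hairpins passed. The smallest adjusted p (limma) was then 0.179 for miRNAs, 0.0900 for families and 0.603 for hairpins.

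The text names every miRNA past the criteria or a limma call, the 10 smallest p, all copper and mineral nutrient miRNAs, and up to 2 examples of each other list by p; for hairpins, the 10 smallest p and the 5 of the mature miRNAs followed up by the study. Members and lists were chosen with earlier results of these data known. Alternatives covered pseudocounts, scaling, filters, the variance model, seasons, a replicate block and leaving out each library.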

Additional observations from a re-analysis of the deposited data

Results flagged for a closer look

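In 84 checks of groups of 6 libraries, 8 had 1 library far from the rest by Dixon's criterion. Its chance rate of about 5% holds for independent groups of normally distributed values. Here RPM and depth were taken without a log scale, and related miRNAs were checked together. The 8 therefore cannot be set against that rate. Control 1-a was far above the other controls in Zma-miR398b (429 RPM) and Tae-miR408 (68.5 RPM). Stressed 2-a was the far library of Zma-miR398b among stressed heads (129 RPM), and stressed 2-b that of Bdi-miR5200 (26.1 RPM). Control 1-c was far above in Gma-miR6300 (64.5 RPM) and far below in Ttu pre-miR077 (2.07 log2 CPM). Stressed 1-a was far below in Ttu pre-miR058 (1.13 log2 CPM). Control 2-b had a depth of 1.77e+07 reads, far deeper than the other controls. What set these libraries apart was not tested.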

How the results depend on the processing

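The count of 13 miRNAs past the fold change criteria became 8 with geometric means, 8 with a minimum of 20 RPM, 8 with a fold change above 2 and 30 in season 2 alone (chosen after seeing the data), and ran from 10 to 22 when 1 library was left out, with 22 without control 1-b. The 0 calls of limma became 1 miRNA, 2 families and 1 hairpin in season 2 and 3 hairpins in season 1. Leaving out 1 library gave 0 to 2 families, with 2 without control 1-c, and 0 to 1 differences from EGA Bellaroi heads. The log2 difference in total RPM ran from -0.37 to -0.14 when 1 library was left out, and was -0.05 in season 1 and -0.38 in season 2. The replicate block gave 0 calls in each comparison, with a smallest adjusted p of 0.639 for the miRNAs, 0.338 for the families, 0.971 for the hairpins, 0.196 against EGA Bellaroi and 0.104 against Yawa; 2 of 6 libraries correlated best with their own number. Directions turned in these cases, none of them past the test. Osa-miR1432 changed by 0.010, 0.055, 0.29 and 0.037, and Sbi-miR1432 by 0.046, 0.097, 0.33 and 0.11, with a pseudocount of 0.5 RPM, median-ratio scaling, voom and season 1. Zma-miR399c changed by 0.0090, 0.023 and 1.43 with that pseudocount, that scaling and season 1. In season 1 Bdi-miR168 changed by 0.27, Ath-miR396b by 1.01, Zma-miR399e by 0.59, Bdi-miR5200 by 0.99, Ttu pre-miR008 by 0.69, Ttu pre-miR038 by 0.53, Ttu pre-miR109 by 0.43, Ttu pre-miR119 by 0.95 and Ttu pre-miR023, Ttu pre-miR026 and Ttu pre-miR130 by -0.25. In season 2 Sbi-miR168 changed by 0.37, Bdi-miR5049 by -0.024 and Ttu pre-miR070 by -0.87. With 1 library left out the ranges that crossed 0 were -0.61 to 0.19 for Osa-miR1432, -0.58 to 0.19 for Sbi-miR1432, -0.76 to 0.094 for Ath-miR396b, -0.52 to 0.27 for Zma-miR399c, -0.59 to 0.34 for Bdi-miR5200, -0.0037 to 0.46 for Bdi-miR827-3p, -0.62 to 0.10 for Ttu pre-miR109 and -0.44 to 0.29 for Ttu pre-miR119. The causes were not tested. At 6 plants a group, and with 3 reads worth up to 1.202 RPM, small changes of low miRNAs were not detectable.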
